A study of Mus musculus with 39 samples.

Results

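Normal growth of the mouse left ventricle between 3 and 8 weeks of age was followed in 7 of the 39 RNA sequencing libraries of a study of phospholamban R14del cardiomyopathy and ischemic heart disease. The libraries were chosen by their labels alone, as the unoperated wild type hearts of 3 weeks (n = 4) and 8 weeks (n = 3), and all genes of the count table were compared between them. All 7 came from C57BL6/J mice with the wild type genotype and no surgery, and carried library names with the prefix kb. For reference, levels are also given in unoperated wild type C57BL6/J hearts of 5 weeks (n = 4) and in wild type C57BL6/J hearts after sham surgery, 2 aged 12 weeks and 2 aged 20 weeks. The sham mice were operated on as males of 12 weeks. Library names differ between the 5-week hearts, the shams and the kb set, so that age and library set cannot be told apart between these sets. The labels name separate samples and number no animals, and the spread behind each p-value may therefore be technical.

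After birth the heart muscle cells of a mouse largely stop dividing and grow by enlarging. They replace fetal forms of contractile proteins and channels with adult ones, fill with mitochondria and take up fatty acids as their main fuel, while the fibroblasts that laid down collagen during growth become quiescent. Pups are weaned from fat-rich milk to chow near the youngest age sampled here, and puberty falls between the ages compared.

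Counts summed to between 13.1 M and 15.7 M in the 3-week libraries and between 14.6 M and 18.4 M in the 8-week libraries. Replicates differed beyond sampling noise in every pair, with a chi-square of 6.045 to 14.8 per gene. Genes encoded by the mitochondrial genome took 14.7% ± 0.818 (SD, n = 4) of counts at 3 weeks and 15.8% ± 0.628 (SD, n = 3) at 8 weeks, against 20.4% ± 0.51 (SD, n = 4) at 5 weeks and 23.1% to 26% in the shams. The first principal component held 45.1% of the variance and separated the ages. The second held 14.3%, with 3-week replicate 2 at -25.5 and 8-week replicate 3 at -12.7, apart from the other libraries, which lay between 1.3 and 13.3. Heart muscle markers were abundant in all 7 libraries, with summed CPM (counts scaled to the library total) of 96300 to 104000 at 3 weeks and 92600 to 97000 at 8 weeks. The Y-linked gene Ddx3y was read in every library, at 24.3 to 39.9 CPM at 3 weeks and 40 to 45.8 CPM at 8 weeks.

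Of 13537 genes with enough counts to test, 1870 (13.8%) changed between 3 and 8 weeks at an adjusted p under 0.05 in edgeR's quasi-likelihood test. Higher at 8 weeks were 1019 genes (7.53%) and lower were 851 (6.29%). With scaling by library size alone the balance turned, with 833 higher and 984 lower. Their changes were mostly modest, with a median absolute log2 change of 0.52, and 174 rises and 179 falls exceeded 1 on the log2 scale. The median over all genes tested was -0.002, and -0.03 with library size alone. The scaling used assumes that most genes do not change and so sets this centre near 0. The changes below are relative to it. The 2 age groups did not overlap in 1759 of the called genes and in 26.1% of all genes tested. The count depended on single libraries. It fell to 931 without 8-week replicate 2 and to 1228 without 8-week replicate 3, and lay between 1420 and 1713 when any other library was left out. Counts of called list members below are to be read beside the shares of all genes, 13.8% called, 7.53% higher and 6.29% lower.

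**Figure D1:**
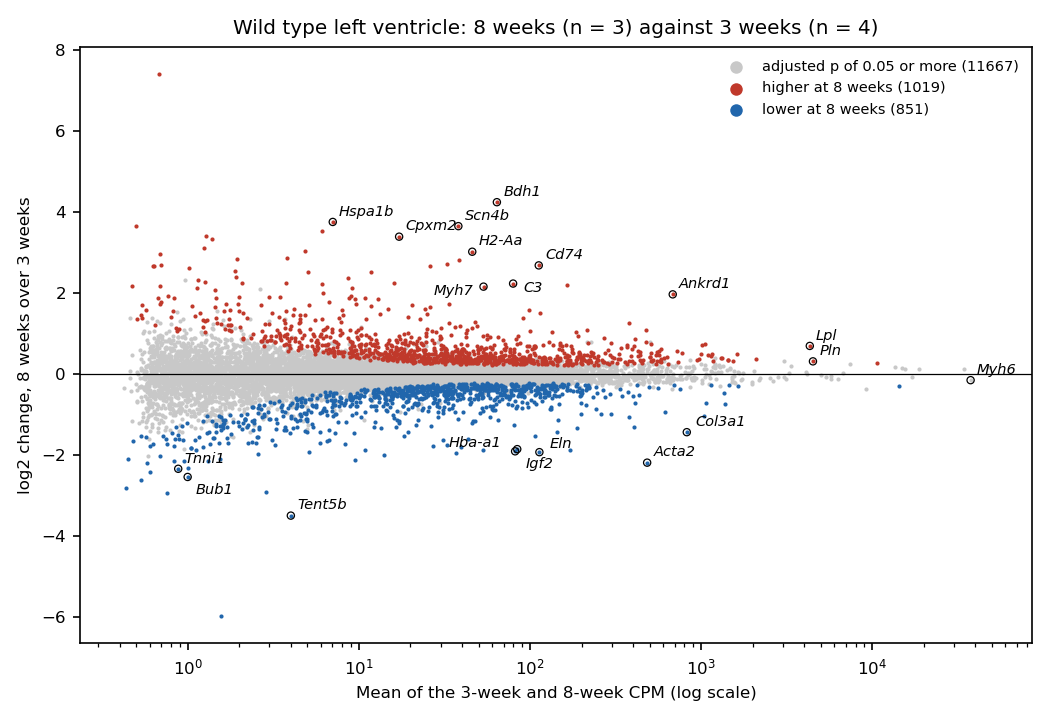
Change of each tested gene against its level, with the mean of the 3-week and 8-week CPM on a log axis and the log2 change of 8 weeks over 3 weeks on the other. Red points are the 1019 genes called higher and blue points the 851 called lower, and some genes of the text are labelled. Low-abundance genes reach the largest changes, and Bdh1 and Scn4b lie at the top among genes above 5 CPM whose ages do not overlap.

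The rises with a mean of at least 5 CPM and no overlap between ages were led by Bdh1, Scn4b, Hspa1a, Cpxm2, Inmt, H2-Aa, Cdh4, H2-Eb1, H2-Ab1 and Cd74. The falls were led by Tent5b, Col26a1, Acta2, Lrat, Alas2, Fbn2, Eln, Hba-a1, Hbb-bs and Aqp4. Cpxm2, a secreted member of the carboxypeptidase family, had the smallest p of the rises. It stood at 1.99, 3.38, 3.84 and 2.91 CPM in the 3-week hearts and at 26.5, 30.2 and 37.3 CPM in the 8-week hearts, a rise of 3.39 ± 0.17 (log2 change ± standard error; adjusted p = 9.12e-07). Every 8-week heart thus exceeded every 3-week heart by a wide gap. Cdh4, which encodes R-cadherin, rose from 0.386 to 1.53 CPM at 3 weeks to 6.1 to 7.11 CPM at 8 weeks (2.87 ± 0.29). Inmt, an amine N-methyltransferase, rose from at most 1.85 CPM to at least 8.32 CPM (3.04 ± 0.27). Lrat, which esterifies retinol for storage, fell by 2.13 ± 0.24, from 12.9 to 19.1 CPM down to 1.85 to 4.19 CPM. Aqp4, a water channel, fell by 1.87 ± 0.25, and Tent5b, a poly(A) polymerase, by 3.50 ± 0.55. Among called genes the largest gains in CPM were those of Lpl, Mb, Pln, Ankrd1 and Idh2, and the largest losses those of Actc1, Col3a1, Sparc, Col4a1 and Acta2. The Mb call was lost when any of 6 libraries was left out (adjusted p up to 0.173, log2 change 0.24 to 0.33). Those of Pln and Actc1 were likewise lost, as given below.

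**Figure D2:**
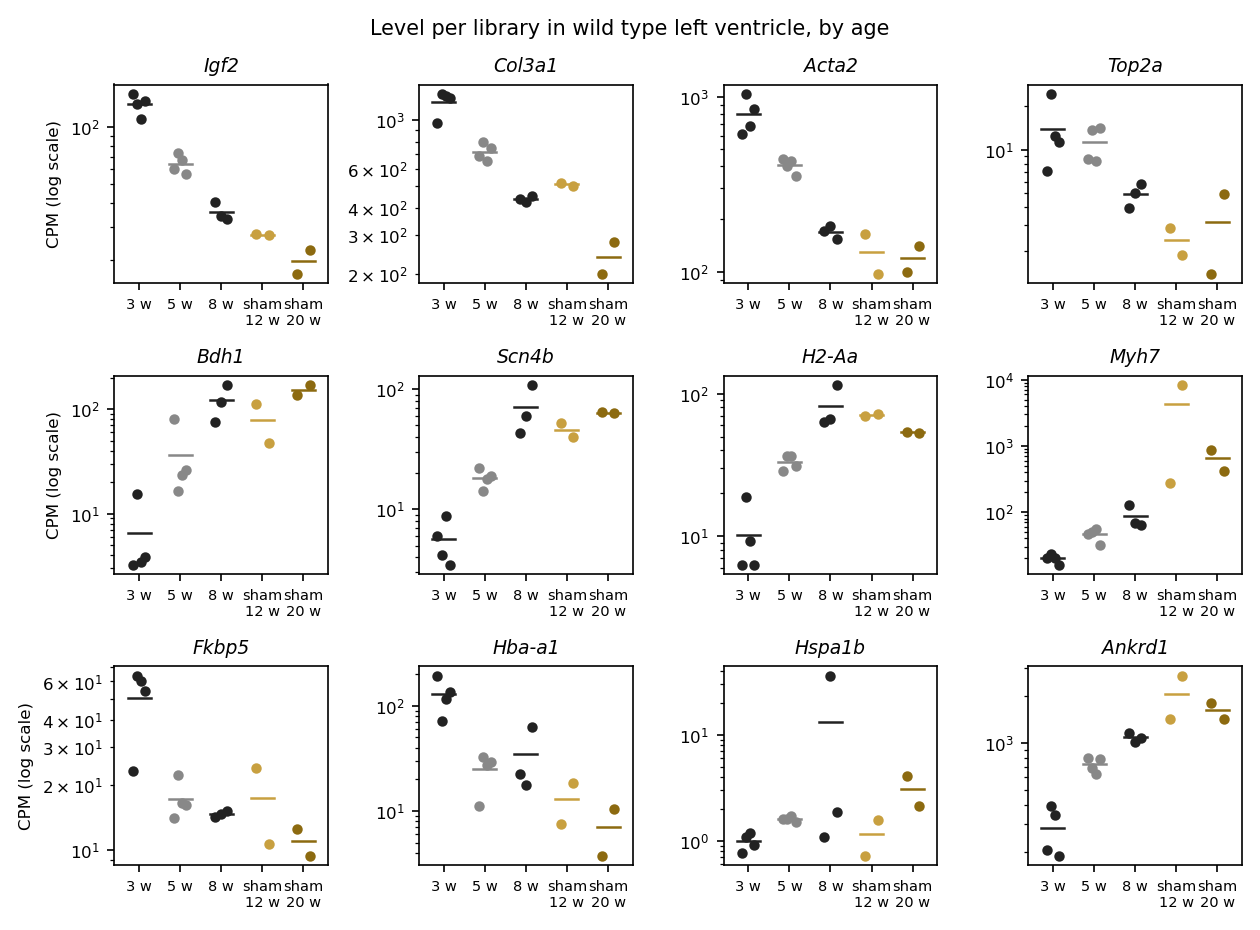
CPM on log axes of 12 genes in every wild type library without infarction, by age; points are libraries and bars the group means, and the 5-week and sham libraries belong to other library sets. Igf2, Col3a1 and Acta2 are lower at 8 weeks than at 3 weeks in every library and Bdh1, Scn4b and H2-Aa higher, while Hspa1b is high in 1 of the 3 8-week libraries.

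Genes of cell division stood lower at 8 weeks. The mitosis list holds kinases, cyclins, spindle motors and kinetochore proteins. Of its 30 members 29 had a log2 change below 0, 16 fell and 1 rose, and the median was -1.29 beside -0.002 over all genes. Top2a, the topoisomerase that untangles chromosomes before division, stood at 7.07, 24.5, 12.4 and 11.3 CPM at 3 weeks and at 3.97, 5.06 and 5.83 CPM at 8 weeks. It fell by 1.45 ± 0.33 (adjusted p = 0.0114), and the ages did not overlap, although 3-week replicate 2 was far above the other libraries. Mki67, the proliferation marker Ki-67, stood at 7.14, 29.8, 18.05 and 14.85 CPM and then at 5.27, 7.59 and 8.02 CPM, and fell by 1.30 ± 0.35 (adjusted p = 0.0264). Here the ages overlapped, since 3-week replicate 1 lay below 2 of the 8-week hearts. Bub1, a checkpoint kinase, fell by 2.54 ± 0.58, Ccna2 (cyclin A2) by 1.42 ± 0.33 and Ccnb2 (cyclin B2) by 1.36 ± 0.31. Cenpf, a kinetochore protein, was the exception and rose by 0.78 ± 0.22. The number of members that fell depended on single libraries, from 3 without 8-week replicate 2 to 24 without 3-week replicate 1, with medians between -1.52 and -0.86. When libraries were left out the call was kept for Top2a, but robust dispersion ended it (adjusted p = 0.0858), as for Mki67 (0.162). Top2a was also not called with all 3-week and 8-week libraries or all 39 in the fit (0.135 and 0.0773), nor was Mki67 (0.169 and 0.0921). DESeq2 did not call Mki67 either (adjusted p = 0.0585). The call was lost when 1 of 4 or 5 libraries was left out for Mki67 and Cenpf (adjusted p up to 0.0839 and 0.137), without 8-week replicate 3 for Bub1 and Ccna2 (0.051 and 0.0585), and without 8-week replicate 2 for Ccnb2 (0.0562).

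The replication list, which holds the helicase, its loaders and the enzymes of nucleotide supply, had 30 of 30 members below 0, 10 of them fell, and its median was -0.62. Mcm7, a subunit of the replicative helicase, stood at 16.9, 21.5, 20.4 and 19.1 CPM at 3 weeks and at 10, 10.3 and 12.3 CPM at 8 weeks. The fall of 0.81 ± 0.11 (adjusted p = 0.000527) kept its call whichever library was left out. Uhrf1, which copies DNA methylation to new strands, fell by 1.71 ± 0.28, Mcm5 by 0.97 ± 0.22 and Tk1, thymidine kinase, by 1.11 ± 0.27. The number of members that fell lay between 2 (without 8-week replicate 2) and 14, and Mcm5 and Tk1 lost their calls without 8-week replicate 2 (adjusted p up to 0.0615 and 0.0732). Summed over the list the level ran from 190 to 310 CPM at 3 weeks and from 143 to 174 CPM at 8 weeks. In left ventricular tissue fewer cells of a type and less RNA per cell cannot be told apart, and the dividing cells were not identified.

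Promoters of the falling mitosis genes are shown because these genes moved together. Promoters of such genes are known to carry CCAAT boxes, which the factor NF-Y binds, near a cell cycle homology region written TTTGAA or TTTAAA. The sequences are RefSeq promoter windows (GRCm38.p6, the first entry of a gene), from 170 bases before to 30 bases after the start, 5′ to 3′ on the gene's strand, with CCAAT on either strand in capitals, and likewise both forms of the homology region. The windows are Top2a at chr11:99024160-99024359 (minus strand), Bub1 at chr2:127831830-127832029 (minus), Ccnb2 at chr9:70421525-70421724 (minus) and Plk1, a mitotic kinase, at chr7:122159265-122159464 (plus). These are the 4 falling members of smallest p with an entry, with members on 1 chromosome left out of the choice.
Top2a: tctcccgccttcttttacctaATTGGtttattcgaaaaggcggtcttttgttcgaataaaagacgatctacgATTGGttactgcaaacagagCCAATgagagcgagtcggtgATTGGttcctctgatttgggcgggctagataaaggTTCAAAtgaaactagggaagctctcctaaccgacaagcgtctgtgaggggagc
Bub1: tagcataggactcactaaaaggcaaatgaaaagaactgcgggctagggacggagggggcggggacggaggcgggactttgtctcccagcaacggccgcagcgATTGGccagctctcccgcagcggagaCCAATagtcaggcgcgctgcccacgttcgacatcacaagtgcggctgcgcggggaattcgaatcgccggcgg
Ccnb2: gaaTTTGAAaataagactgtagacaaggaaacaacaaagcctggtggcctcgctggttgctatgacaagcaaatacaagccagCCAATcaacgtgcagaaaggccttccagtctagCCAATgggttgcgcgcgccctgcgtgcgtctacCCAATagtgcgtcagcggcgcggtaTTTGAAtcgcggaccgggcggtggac
Plk1: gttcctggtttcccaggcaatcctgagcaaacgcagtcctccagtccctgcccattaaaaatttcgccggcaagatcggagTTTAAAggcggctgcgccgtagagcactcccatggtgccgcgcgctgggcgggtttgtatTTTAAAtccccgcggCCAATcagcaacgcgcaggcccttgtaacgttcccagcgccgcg
Each of the 4 windows holds CCAAT on either strand, with 4 copies in Top2a, 3 in Ccnb2, 2 in Bub1 and 1 in Plk1, and the Bub1 window holds neither TTTGAA nor TTTAAA. Over the full promoters of 300 bases, CCAAT was found in 10 of the 13 falling mitosis genes with an entry (76.9%) and in 7 of 10 falling replication genes (70%), beside 37.9% of 27025 promoters in all. TTTGAA was found in 9 of 13 (69.2%) mitosis genes and 0 of 10 replication genes, beside 18.1%, and TTTAAA in 2 of 13 and 3 of 10, beside 13.2%. The E2F-type letters TTGGCGC were found in 4 of 10 replication genes (40%) and 2 of 13 mitosis genes, beside 2.54%, and TTTCGCGC in 3 of 10 and 1 of 13, beside 0.318%. TATAAA was in 0 of 13 and 0 of 10, beside 14.2%. All motifs were searched on both strands, and a match is a description of letters, not of binding.

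Genes of the imprinted growth network were mostly lower at 8 weeks. These genes are read from 1 parental copy and act on fetal growth. Of the 14 members tested 8 fell, 1 rose and the median was -0.52. Igf2, insulin-like growth factor 2, lies in GRCm38 at 142650766 to 142666816 on chromosome 7 (minus strand). It stood at 150.5, 132, 110.5 and 137.5 CPM at 3 weeks and at 40.4, 34.2 and 32.8 CPM at 8 weeks, a fall of 1.86 ± 0.12 (adjusted p = 6e-06). The mean was 64.3 CPM at 5 weeks and 23.5 CPM in the shams. Its neighbour H19, a noncoding RNA from the same domain, stood at 40.1, 30, 14.8 and 38.3 CPM and then at 12.4, 10.9 and 14.5 CPM, and fell by 1.26 ± 0.27. The groups nearly touched, since 3-week replicate 3 stood just above the highest 8-week heart. Peg3, a zinc finger gene read from the paternal copy, fell by 1.42 ± 0.10, from 27.1 to 29.9 CPM down to 9.04 to 11.6 CPM. Meg3, a maternally read noncoding RNA, fell by 0.79 ± 0.10. Impact, a translational regulator, was the member that rose, from 14.9 to 17.6 CPM up to 21.1 to 23.8 CPM (0.50 ± 0.09). The members that fell numbered 5 (without 8-week replicate 2) to 8 when a library was left out, and the H19 call was lost with robust dispersion (adjusted p = 0.0913).

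Within the insulin-like growth factor system 6 of 14 members fell and 2 rose, with a median of -0.18, and 3 fell without 3-week replicate 2 or 3 or 8-week replicate 3. Irs1, the adaptor that couples insulin and IGF receptors to their signal, fell by 0.78 ± 0.12, from 69.6 to 83.3 CPM down to 37.7 to 53.1 CPM. The binding proteins Igfbp3 (-0.76 ± 0.15) and Igfbp7 (-0.56 ± 0.11) fell, and Igfals, which stabilizes circulating complexes of IGF, rose by 0.93 ± 0.17. Igf1 itself stood at 14.6 to 17.6 CPM at 3 weeks and 11.5 to 13.2 CPM at 8 weeks (-0.34 ± 0.11, adjusted p = 0.0533).

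Many extracellular matrix genes fell. The collagen list had 17 of 24 members that fell and a median of -0.82, the elastic fibre and matricellular list 16 of 27 with a median of -0.52, and the crosslinking and processing list 13 of 25 with a median of -0.41 and 1 rise. Whichever library was left out, the collagens that fell numbered 16 to 19, the elastic and matricellular members 12 to 17 and the processing members 12 to 15. Col3a1, a fibril-forming collagen of soft tissue, lies on chromosome 1 from 45311538 to 45349706. It stood at 970.7, 1325, 1295 and 1259 CPM at 3 weeks and at 437.9, 425 and 452 CPM at 8 weeks, a fall of 1.44 ± 0.10 (adjusted p = 6.89e-06). Col1a1, the main collagen of stiff matrix, stood at 495.8, 665.7, 569.5 and 593.1 CPM and then at 219.2, 244.3 and 227.8 CPM (-1.30 ± 0.09). Neither gene overlapped between ages, and the 8-week hearts differed little among themselves. Col5a1, which nucleates fibrils, fell by 1.34 ± 0.09, Col6a2 of beaded filaments by 0.99 ± 0.08 and Col4a1 of the basement membrane by 0.74 ± 0.10.

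Elastin (Eln) stood at 168.5, 229, 180.8 and 143.5 CPM at 3 weeks and at 36.8, 45.5 and 57.3 CPM at 8 weeks (log2 change -1.93 ± 0.15). Fbn2, the fibrillin of developing tissue, fell by 1.93 ± 0.19. Mfap5, a fibril-associated glycoprotein, fell by 1.21 ± 0.14, Sparc, which binds collagen and calcium, by 1.04 ± 0.10 and fibronectin (Fn1) by 0.86 ± 0.10. Among the processing enzymes Loxl2, which crosslinks collagen, fell by 1.15 ± 0.10, Adamts2, which trims procollagen, by 0.86 ± 0.10, Mmp2, a gelatinase, by 0.67 ± 0.09 and Bmp1, the C-proteinase, by 0.58 ± 0.08. P4ha1, a prolyl hydroxylase that is also a target of hypoxia signalling, rose by 0.37 ± 0.10, with overlapping ages and a call lost without 5 of the 7 libraries in turn (adjusted p up to 0.162).

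Fibroblast markers were mixed. In the fibroblast list 6 of 12 members fell, or 3 without 8-week replicate 2, and the median was -0.31. Lum, a collagen-binding proteoglycan, stood at 99.5, 97.5, 95.6 and 103.3 CPM at 3 weeks and at 60.8, 52.1 and 58.5 CPM at 8 weeks (-0.76 ± 0.08). The others that fell were Col1a1, Mfap5, Dpt, Cd34 and Pdgfrl. Dcn, the most abundant proteoglycan of the list, stood at 473 to 512 CPM and then 407 to 510 CPM, and Pdgfra, the receptor that defines resident fibroblasts, at 46.6 to 56.1 and 39.5 to 45.1 CPM (-0.23 ± 0.09, adjusted p = 0.0974). Tcf21, a defining transcription factor of the lineage, stood at 8.04 to 10.4 and 8.37 to 9.22 CPM (-0.04 ± 0.12), and Ddr2 at 33.8 to 38.9 and 31.4 to 43.2 CPM. Summed over the list the level ran from 2940 to 3320 CPM at 3 weeks and from 2440 to 2880 CPM at 8 weeks, which do not overlap. The sum includes Col1a1, whose fall is given above, and without Col1a1 the sums of the ages overlap. The gap is thus not independent of the matrix result. The part of fibroblast number in the matrix result was not tested.

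Among isoforms of the contractile apparatus 5 of 24 members fell and 1 rose (25% called, beside 13.8% of all genes), with a median of -0.16. Without 8-week replicate 2 the number that fell was 2, and without 3-week replicate 1 or 8-week replicate 3 it was 3. Acta2, smooth muscle actin, which heart muscle also makes before birth, had the third largest fall among genes above 5 CPM. It stood at 613.9, 1041, 682.2 and 852.4 CPM at 3 weeks and at 172.6, 183.9 and 154.9 CPM at 8 weeks (-2.19 ± 0.16, adjusted p = 6.89e-06). The level at 5 weeks was 407 CPM on average. Among 9 smooth muscle markers edgeR called Acta2 alone, and DESeq2 and library size alone each called 2. Myh11, smooth muscle myosin, stood at 81.2 to 110 CPM at 3 weeks and 88.2 to 104 CPM at 8 weeks (-0.02 ± 0.10), Tagln at 40.4 to 63.8 and 44.5 to 56.3 CPM.

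The fetal troponin I was already scarce at the youngest age. Tnni1, the fetal form, stood at 1.67, 1.53, 0.992 and 1.76 CPM at 3 weeks and at 0.435, 0.301 and 0.0686 CPM at 8 weeks, and fell by 2.34 ± 0.46 (adjusted p = 0.00558). Tnni3, the adult form, stood at 3812 to 4647 CPM and then 3821 to 4393 CPM (0.04 ± 0.10). Per kilobase of exon, Tnni1 made up 0.0207% ± 0.00455 (SD, n = 4) of the 2 forms at 3 weeks and 0.0036% ± 0.00236 (SD, n = 3) at 8 weeks. Tnnt1, the slow skeletal troponin T, fell by 0.52 ± 0.12, from 15.4 to 21.9 CPM down to 11.9 to 14.8 CPM, a call lost without 8-week replicate 2 (adjusted p = 0.0777). Tnnt2, the cardiac form, changed by 0.02 ± 0.09. Actc1, cardiac actin, stood at 13770 to 17630 CPM and then 12420 to 13030 CPM (-0.29 ± 0.09, adjusted p = 0.0439), a call lost when any of 6 libraries was left out (up to 0.149). Acta1, skeletal actin, stood at 193.5, 695.9, 363.4 and 236.7 CPM and then at 438.4, 790.4 and 660.6 CPM, and its ages overlapped (0.80 ± 0.33, adjusted p = 0.135).

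The slow myosin heavy chain rose. In the mouse ventricle the slow chain Myh7 marks the fetal heart and the fast chain Myh6 the adult heart. Myh7 (chromosome 14, 54970684 to 54994626) stood at 20.1, 23.3, 20.6 and 15.9 CPM at 3 weeks and at 128.2, 67.7 and 65 CPM at 8 weeks, a rise of 2.16 ± 0.21 (adjusted p = 6.16e-05), and was 46.1 CPM on average at 5 weeks. Every 8-week heart exceeded every 3-week heart. Myh6, its neighbour on the chromosome, stood at 38860 to 41350 CPM and then 33900 to 36180 CPM (-0.15 ± 0.08, adjusted p = 0.233). Per kilobase Myh6 made up 99.8% ± 0.0735 (SD, n = 3) of the pair at 8 weeks, so that Myh7 remained a minor form. The genes are similar in sequence, and reads that fit both could be split by the counting. Of the light chains, Myl2 stood at 6273 to 7658 and 7527 to 8477 CPM (0.24 ± 0.09, adjusted p = 0.103) and Myl3 at 5429 to 6725 and 5488 to 5686 CPM. The atrial forms varied between hearts of an age: Myl7 ran from 24.1 to 119 CPM at 3 weeks and from 28.7 to 95.1 CPM at 8 weeks, and Myl4 from 34.1 to 145 and from 31.9 to 101 CPM.

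Genes of the Z-disc, titin's partners and the M-band mostly rose where they changed, with 7 of 23 higher, 2 lower and a median of 0.17. The share called was 39.1%, beside 13.8% of all genes. Ankrd1, a stretch-responsive repeat protein that binds titin, stood at 206.3, 394.7, 346.2 and 188.3 CPM at 3 weeks and at 1159, 1014 and 1074 CPM at 8 weeks (1.97 ± 0.20, adjusted p = 6.77e-05). Its relative Ankrd23 rose by 1.27 ± 0.14, from 182 to 307.7 CPM up to 470.2 to 570.6 CPM. Myot, myotilin, which crosslinks actin at the Z-disc, stood at 12.5, 20.1, 16.8 and 13.9 CPM and then at 47.5, 59.3 and 46.6 CPM (1.72 ± 0.14). Xirp2, a protein of the Z-disc and the cell ends, rose by 0.87 ± 0.09. Obsl1, of the obscurin family, fell by 0.31 ± 0.07 (adjusted p up to 0.0695 when 8-week replicate 2 or 3 was left out).

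At the intercalated disc, where heart muscle cells join end to end, 5 of 17 members rose, 1 fell and the median was 0.1. The share called was 35.3%, beside 13.8% of all genes. Gja1 (connexin 43), the main gap junction channel of the ventricle, stood at 289.6, 235.1, 293.5 and 312.4 CPM at 3 weeks and at 420.4, 420.1 and 533.6 CPM at 8 weeks (0.72 ± 0.11, adjusted p = 0.00126). Dsp, desmoplakin of the desmosome, rose by 0.71 ± 0.12, from 640.3 to 944.4 CPM up to 1128 to 1368 CPM. Nrap, which anchors terminal actin, rose by 0.52 ± 0.08 and Flnc, filamin C, by 0.47 ± 0.07. Gjc1 (connexin 45), a gap junction channel of the early and conducting heart, fell by 0.34 ± 0.09, a call lost without 4 of the libraries in turn (adjusted p up to 0.14).

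Ion channel genes changed in both directions. Of the sodium, chloride and pacemaker channels 4 of 17 rose and 2 fell (35.3% called, beside 13.8% of all genes), with a median of -0.08. Scn4b, a regulatory subunit of the sodium channel, had the second largest rise among genes above 5 CPM without overlap. It stood at 5.98, 4.21, 8.86 and 3.44 CPM at 3 weeks and at 43.3, 59.3 and 109.3 CPM at 8 weeks (3.65 ± 0.31, adjusted p = 2.15e-05), and at 18.2 CPM on average at 5 weeks. Scn4a, the skeletal muscle pore, rose by 1.17 ± 0.17. Hcn2, a pacemaker channel, fell by 0.63 ± 0.10, from 65.1 to 84 CPM down to 42.8 to 56.7 CPM.

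Of 20 potassium channel genes 4 rose, or 2 without 8-week replicate 3, and 4 fell, with a median of 0.07. The share called was 40%, beside 13.8% of all genes. Kcne1, the subunit that slows the delayed rectifier, stood at 48.1, 50.2, 34.6 and 54.7 CPM at 3 weeks and at 14.7, 13.6 and 16.6 CPM at 8 weeks, a fall of 1.62 ± 0.14 (adjusted p = 2.85e-05). Kcna5, which carries an ultrarapid current, fell by 0.60 ± 0.12. Kcna7, a voltage-gated channel of muscle, rose by 1.09 ± 0.12 and Kcnv2, a silent modifier subunit, by 0.96 ± 0.18. Among 29 calcium handling genes 2 rose and 6 fell (27.6% called, beside 13.8% of all genes), with a median of -0.01. Whichever library was left out 3 to 4 fell, with 3 without any 8-week library. Cacna1g, a T-type calcium channel of the immature heart, fell by 0.84 ± 0.18, from 59.8 to 72.2 CPM down to 24.3 to 47.4 CPM. Casq1, the skeletal calsequestrin, stood at 43.8, 89.2, 74.6 and 57.9 CPM and then at 34.7, 19.3 and 8.16 CPM (-1.62 ± 0.35), and its change was -2.24 without 8-week replicate 1. With robust dispersion the calls of Cacna1g and Casq1 were lost (adjusted p = 0.0641 and 0.119). Cav3, caveolin 3 of the T-tubule, fell by 0.51 ± 0.09, and S100a1, a calcium sensor of the reticulum, rose by 0.45 ± 0.08.

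Pln, the gene that carries the R14del mutation in the rest of the study and here is wild type, encodes phospholamban, which restrains the calcium pump. It stood at 3980, 3596, 4226 and 4457 CPM at 3 weeks and at 5114, 4676 and 5067 CPM at 8 weeks, and rose by 0.31 ± 0.09 (adjusted p = 0.0379). The ages did not overlap, but the call was lost when any of 6 libraries was left out (adjusted p up to 0.143). Atp2a2, the pump itself, stood at 12920, 12510, 15960 and 16050 CPM and then at 15350, 15760 and 15760 CPM (0.15 ± 0.10, adjusted p = 0.373). Of the wall stress genes Nppb, the B-type natriuretic peptide, stood at 29.7, 114.1, 37.2 and 19.7 CPM and then at 140.5, 117.6 and 180.5 CPM, a rise of 1.58 ± 0.41 (adjusted p = 0.0246). Its 3-week replicate 2 lay close to the 8-week hearts. Without that library the rise was 2.34, and the call was lost without 4 others in turn (up to 0.0839) and with robust dispersion (0.18). Nppb was also not called by DESeq2 (adjusted p = 0.0878) or with all 3-week and 8-week libraries in the fit (0.125). Nppa, the atrial peptide, stood at 147.6, 534.1, 268.8 and 175.5 CPM and then at 190.3, 336.7 and 219.8 CPM, with overlap and no call (-0.13 ± 0.34, adjusted p = 0.839).

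Of 30 genes of fatty acid uptake and oxidation 13 rose, 23 were above 0 and the median was 0.21. The members that rose included the transporter Cd36, the binding protein Fabp3, the dehydrogenases Acadm and Acads, and both subunits of the trifunctional protein. Hadhb, its beta subunit, stood at 579.4, 526.9, 646.1 and 592.1 CPM at 3 weeks and at 862.6, 799.8 and 903.5 CPM at 8 weeks (0.57 ± 0.08, adjusted p = 0.00101). Acad11 rose by 0.62 ± 0.08 and Decr1, which handles unsaturated chains, by 0.46 ± 0.08. Acsl6, an acyl-CoA synthetase, rose most, from 2.44 to 4.02 CPM up to 10 to 21.9 CPM (2.12 ± 0.25). The outer carnitine palmitoyltransferases, which admit fatty acids to mitochondria, were not called, while Cpt2, the inner enzyme, was among the members that rose. Cpt1b, the muscle form, stood at 19.7 to 22.1 and 19.5 to 21.9 CPM, and Cpt1a, the liver form, at 70.9 to 88.5 and 68.4 to 70.5 CPM (-0.18 ± 0.09, adjusted p = 0.195). Between 8 and 15 members rose when a library was left out, with 8 without 3-week replicate 4, 8-week replicate 1 or 8-week replicate 2.

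Bdh1, the mitochondrial enzyme that interconverts ketone bodies, had the largest rise among called genes above 5 CPM. It lies on chromosome 16 from 31422280 to 31458901. It stood at 3.22, 15.3, 3.44 and 3.83 CPM at 3 weeks and at 75.5, 117 and 172.4 CPM at 8 weeks, a rise of 4.24 ± 0.41 (adjusted p = 6.08e-05), or 5.13 without 3-week replicate 2. The 3-week hearts apart from that replicate were within 1 CPM of each other. Oxct1, the next enzyme of ketone use, rose by 0.40 ± 0.07, from 1098 to 1242 CPM up to 1422 to 1577 CPM. Lpl, which frees fatty acids from blood lipoproteins, stood at 2962, 3274, 3714 and 3422 CPM and then at 5116, 5269 and 5511 CPM (0.69 ± 0.08, adjusted p = 0.000214). Ucp2, an uncoupling protein, fell by 1.44 ± 0.09, from 186.4 to 224.1 CPM down to 69.5 to 81.7 CPM. These belong to a list of 17 genes that respond to fasting and PPAR, of which 5 rose and 1 fell, with a median of -0.2, and 3 rose without 3-week replicate 4 or 8-week replicate 2.

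Of 30 genes of the TCA cycle and the breakdown of branched-chain amino acids 9 rose and 1 fell, with a median of 0.11. The share called was 33.3%, beside 13.8% of all genes. Bckdha, a subunit of the complex that commits branched-chain acids to breakdown, stood at 184.6, 188.6, 213.8 and 176.9 CPM at 3 weeks and at 351.5, 350.8 and 342.3 CPM at 8 weeks (0.90 ± 0.08, adjusted p = 2.77e-05). Ivd, which acts on leucine, rose by 0.68 ± 0.08, Suclg2, a subunit of succinyl-CoA ligase, by 0.68 ± 0.07, and Idh2, the NADP-dependent isocitrate dehydrogenase of mitochondria, by 0.49 ± 0.07. Idh3a of the NAD-dependent enzyme fell by 0.26 ± 0.08, a call lost without 5 libraries in turn (adjusted p up to 0.148).

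Of the 35 nuclear genes of the respiratory chain 0 were called by edgeR, with 6 at an unadjusted p under 0.05, while DESeq2 and limma-voom each called 2 lower. Their log2 changes lay between -0.27 and 0.2, with 29 below 0, 6 above 0 and a median of -0.09. The mitochondrially encoded list had 0 of 9 called by edgeR, DESeq2 or limma-voom, 1 at an unadjusted p under 0.05 and a median of 0.17. Some subunits have a muscle form and a form used in most tissues. Cox6a1, the form of most tissues, fell by 0.65 ± 0.11, from 100.2 to 147.8 CPM down to 73.2 to 81.3 CPM, while its partner Cox6a2 stood at 1377 to 1703 and 1436 to 1690 CPM (0.08 ± 0.10). Per kilobase the Cox6a1 share of the pair was 7.29% ± 0.675 (SD, n = 4) at 3 weeks and 4.54% ± 0.142 (SD, n = 3) at 8 weeks. Cox7a1, a muscle form, rose by 0.36 ± 0.09 and its share of Cox7a1 and Cox7a2 was 70.6% ± 1.19 and 79% ± 2.29. Cox8a fell by 0.46 ± 0.11, and its share beside Cox8b was 16.9% ± 1.62 and 11.4% ± 0.236. The Cox7a1 and Cox8a calls were lost without 8-week replicate 2 and 3 respectively (adjusted p = 0.056 and 0.0648). Slc25a5, an ADP/ATP carrier, fell by 0.46 ± 0.09.

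Glycolysis, glycogen and glucose transport genes were split, with 4 of 29 higher, 3 lower and a median of 0.06. The share called was 24.1%, beside 13.8% of all genes, and 2 were higher without 8-week replicate 1 or 2. Pfkp, the platelet form of phosphofructokinase, fell by 0.56 ± 0.08, from 104.9 to 122.9 CPM down to 70.8 to 77.8 CPM, and Pgk1 by 0.42 ± 0.07. Pfkfb1, which sets the level of the activator of phosphofructokinase, rose by 1.09 ± 0.16, and Slc16a1, a lactate and ketone carrier, by 0.38 ± 0.08. Hk2, the insulin-responsive hexokinase, rose by 0.31 ± 0.08, a call lost without any 8-week library (adjusted p up to 0.109), and Hk1 stood at 224.1 to 279.3 and 213.3 to 223.6 CPM. The Hk1 share of the pair per kilobase was 34.4% ± 3.31 (SD, n = 4) and 27.9% ± 1.2 (SD, n = 3). Slc2a4, the insulin-responsive transporter GLUT4, stood at 391 to 444.3 and 471.2 to 486.5 CPM without overlap (0.21 ± 0.07, adjusted p = 0.077), and Slc2a1 at 11.9 to 17.9 and 15.8 to 18.6 CPM.

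**Figure D3:**
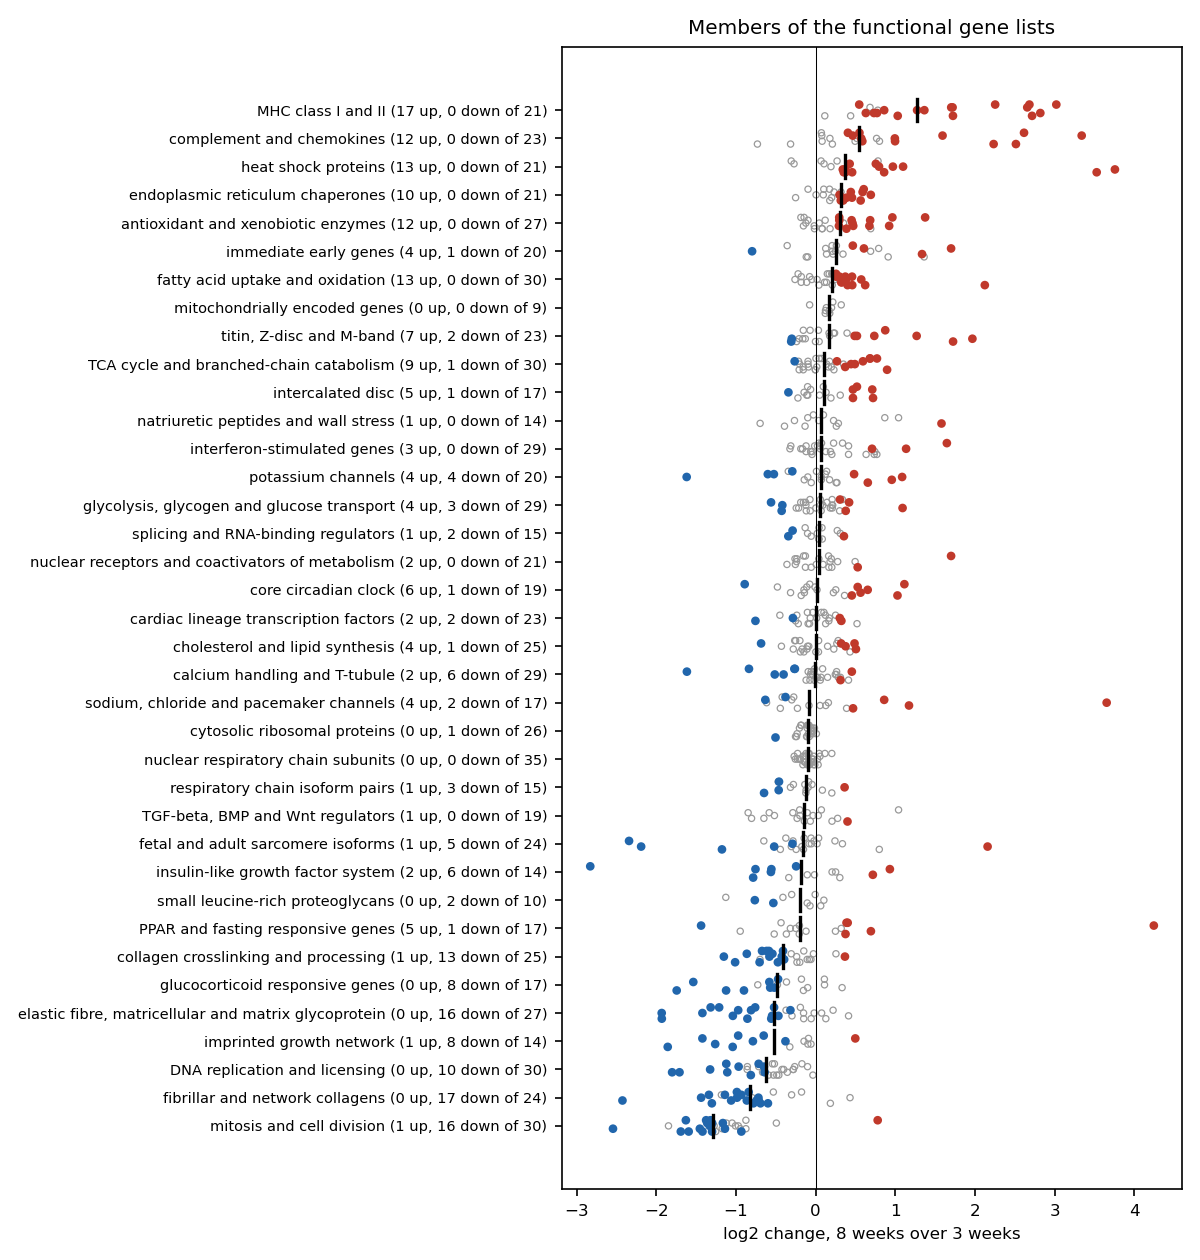
Log2 change of 8 weeks over 3 weeks for the members of the 37 functional gene lists. Each point is a gene, red or blue where called higher or lower and open where not, the black bar is the list's median, and lists are ordered by it. Collagen, replication and mitosis lists sit at the bottom and antigen presentation at the top. The nuclear respiratory chain members all lie close to 0, with 29 of 35 below it.

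Antigen presentation genes had the highest median of the 37 functional lists. Class II molecules present peptides taken up from outside the cell to helper T cells and class I molecules present the cell's own peptides. Of 21 members 17 rose, all 21 were above 0 and the median was 1.27, beside 7.53% of all genes called higher. H2-Aa, a class II chain, stood at 6.3, 18.7, 9.32 and 6.28 CPM at 3 weeks and at 63, 66.3 and 115.9 CPM at 8 weeks (3.02 ± 0.30, adjusted p = 6.16e-05). Cd74, the invariant chain, stood at 17.9, 53, 34.4 and 17.9 CPM and then at 150.5, 176.6 and 255.7 CPM (2.68 ± 0.30). H2-Eb1 rose by 2.82 ± 0.29 and H2-Ab1 by 2.72 ± 0.29. In all 4 genes 3-week replicate 2 and 8-week replicate 3 were the highest of their age, and the ages did not overlap. Class I genes changed less: H2-K1 stood at 73.8 to 198 CPM and then 171 to 327 CPM, and H2-D1 at 100 to 244 and 206 to 336 CPM, both with overlap. Ciita, the class II transactivator, stood at 0.459 to 1.59 and 1.96 to 4.59 CPM (1.72 ± 0.38). Between 10 and 19 members rose when a library was left out, fewest without 8-week replicate 3. The genes of the H2 locus include near-identical copies whose counts are uncertain.

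Promoters of class II genes carry a conserved module that ends in a Y box, which is a CCAAT in reverse. The RefSeq windows of H2-Aa at chr17:34287794-34287993 (minus strand) and H2-Eb1 at chr17:34305697-34305896 (plus strand) in GRCm38.p6 are shown with CCAAT on either strand in capitals, from 170 bases before to 30 after the start.
H2-Aa: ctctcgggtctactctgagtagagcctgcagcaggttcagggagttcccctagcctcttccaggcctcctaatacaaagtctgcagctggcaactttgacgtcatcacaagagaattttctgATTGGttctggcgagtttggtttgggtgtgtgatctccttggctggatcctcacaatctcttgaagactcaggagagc
H2-Eb1: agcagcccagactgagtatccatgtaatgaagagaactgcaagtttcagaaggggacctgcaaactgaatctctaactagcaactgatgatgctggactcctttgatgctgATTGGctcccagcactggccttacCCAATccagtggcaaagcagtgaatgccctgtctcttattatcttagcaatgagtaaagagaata
CCAAT was found in 10 of the 12 rising members with an entry (83.3%), beside 37.9% of all promoters, a search made after the values were seen. TTTGAA was found in 0 of 12, beside 18.1%. TATAAA was found in 4 of 12 (33.3%), beside 14.2%, and TTGGCGC in 1 of 12 (8.33%), beside 2.54%. TTTAAA and TTTCGCGC were each found in 0 of 12, beside 13.2% and 0.318%.

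Markers of the cells that carry class II molecules were set beside these rises. The macrophage list, 16 members of which were tested, had 1 that rose (Timd4, 1.12 ± 0.28) and a median of 0.21, and its summed level ran from 290 to 348 CPM at 3 weeks and from 300 to 391 CPM at 8 weeks. Csf1r, a defining macrophage receptor, stood at 56 to 80.3 and 65.7 to 90.6 CPM, and Cd68 at 8.2 to 12.3 and 10.2 to 14.1 CPM. B cell markers summed to 12.9 to 17.5 CPM and 13.9 to 16.3 CPM, with Cd79a at most 0.978 CPM in any library. The T and NK cell list summed to 2.68 to 4.78 and 3.98 to 5.28 CPM, where 1 of 11 members had enough counts to test. The part of these cells in the class II result was not tested. Of 29 interferon-stimulated genes 3 rose (6 without 8-week replicate 1), 0 fell and the median was 0.07. Those 3 were Gbp4 (1.65 ± 0.26), Iigp1 (1.14 ± 0.19) and Gbp2 (0.71 ± 0.15), guanosine triphosphatases induced by interferon gamma. All 3 were lowest in 8-week replicate 1 among the 8-week hearts, and the Gbp2 call was lost without 8-week replicate 2 (adjusted p = 0.0521).

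Complement and chemokine genes rose in 12 of 23 members, with a median of 0.55. C3, the central complement protein, stood at 31.4, 23, 34.3 and 24.5 CPM at 3 weeks and at 106.3, 145.6 and 141 CPM at 8 weeks, a rise of 2.23 ± 0.14 (adjusted p = 6e-06). Cxcl14, a chemokine of epithelia and fibroblasts, rose by 2.51 ± 0.24, from 2.48 to 5.29 CPM up to 15.1 to 27.1 CPM. Ccl11 (eotaxin) rose by 2.61 ± 0.38, from at most 0.529 CPM to at least 1.65 CPM, and Cx3cl1, a membrane-bound chemokine of endothelium, by 0.99 ± 0.13. The count lay between 10 and 12 whichever library was left out.

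Of 17 genes that respond to glucocorticoids 8 fell, 3 were above 0 and the median was -0.48. Fkbp5, which tunes the receptor, stood at 23.2, 63.9, 60.5 and 54.1 CPM at 3 weeks and at 14.3, 14.6 and 15.2 CPM at 8 weeks (-1.74 ± 0.26, adjusted p = 0.00116). At 5 weeks it was 17.2 CPM on average, close to the 8-week hearts. Tsc22d3 (GILZ) fell by 0.57 ± 0.09, Ddit4, an inhibitor of mTORC1, by 0.90 ± 0.15 and Sult1a1, a sulfotransferase, by 0.58 ± 0.11. Between 6 and 9 members fell when a library was left out. The clock list had 6 of 19 members that rose and 1 that fell (36.8% called, beside 13.8% of all genes), with a median of 0.02. Without 8-week replicate 2 the number that rose was 3. Nr1d1 (REV-ERB alpha) rose by 0.53 ± 0.09, from 149.2 to 183.5 CPM up to 210.2 to 246.2 CPM, and Ciart by 1.11 ± 0.23. Neither was called with all 3-week and 8-week libraries in the fit (adjusted p = 0.301 and 0.0919). Per2 fell by 0.89 ± 0.21 (adjusted p = 0.0656 without 8-week replicate 2 and 0.0975 with robust dispersion), and 8-week replicate 1, at 29.2 CPM, was just below the lowest 3-week heart at 29.6 CPM. Per2 and Fkbp5 also follow the time of day, which the labels do not give, so that age and time of collection cannot be told apart.

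Immediate early genes, which respond to stimuli within minutes, had 4 of 20 members that rose and 1 that fell, with a median of 0.26. The share called was 25%, beside 13.8% of all genes. Nr4a1, an orphan receptor, stood at 8.49, 10.8, 5.29 and 15 CPM at 3 weeks and at 32, 50.4 and 10.1 CPM at 8 weeks (1.70 ± 0.42, adjusted p = 0.0191), with overlap. Jun rose by 0.61 ± 0.14 and Atf3 by 1.33 ± 0.33. Myc, a driver of growth, fell by 0.80 ± 0.18, from 5.66 to 8.03 CPM down to 3.56 to 4.29 CPM. The calls of these 4 genes were lost without 8-week replicate 2 (adjusted p of 0.12, 0.0886, 0.122 and 0.0547). With robust dispersion those of Nr4a1 and Atf3 were lost (0.158 and 0.0571). DESeq2 did not call Nr4a1 (adjusted p = 0.0594).

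Genes of protein folding were mostly higher at 8 weeks. Of 21 endoplasmic reticulum chaperones 10 rose and the median was 0.32. Hspa5 (BiP), the main chaperone of the compartment, stood at 469.9, 461.3, 446.3 and 467.6 CPM at 3 weeks and at 681.4, 612.1 and 714.4 CPM at 8 weeks (0.56 ± 0.07, adjusted p = 0.000363). Manf, a secreted factor of the same response, rose by 0.60 ± 0.09, Dnajb9 by 0.59 ± 0.11 and Hyou1 by 0.46 ± 0.07. With all 3-week and 8-week libraries in the fit, Hspa5, Manf, Dnajb9 and Hyou1 were not called (adjusted p = 0.125, 0.109, 0.106 and 0.181). Of 21 heat shock proteins 13 rose, with a median of 0.37, and 5 without 8-week replicate 2. In that heart Hspa1a was at 28.9 CPM and Hspa1b at 36.3 CPM, while the other 6 libraries held at most 2.66 and 1.85 CPM. Without it the Hspa1a change was 1.2 (adjusted p = 0.0733), and with robust dispersion the calls of Hspa1a and Hsph1 were lost (0.148 and 0.0966). Hsph1 was also highest there, at 108.8 CPM beside 51.2 and 60.9 CPM. Hspb8, a small heat shock protein of muscle, kept its call without that heart. It stood at 384, 374.6, 341 and 316.6 CPM and then at 546.6, 625.5 and 635.4 CPM (0.80 ± 0.08, adjusted p = 8.4e-05). Hspa8 rose by 0.43 ± 0.09 and Dnajb4 by 0.37 ± 0.07.

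Antioxidant and xenobiotic enzymes rose in 12 of 27 members, with a median of 0.3, and in 7 (without 8-week replicate 2) to 11 when a library was left out. Nqo1, a quinone reductase, stood at 25.9, 29.3, 33.2 and 30.1 CPM at 3 weeks and at 56.6, 52.4 and 56 CPM at 8 weeks (0.92 ± 0.08, adjusted p = 4.37e-05). Ces1d, a carboxylesterase, rose by 1.37 ± 0.19, and the glutathione transferases Gstm2 and Gstm1 by 0.68 ± 0.10 and 0.46 ± 0.07. Sterol genes had 4 of 25 that rose (2 without 8-week replicate 2) and 1 that fell, with a median of 0. The share called was 20%, beside 13.8% of all genes. Fdft1, squalene synthase, rose by 0.51 ± 0.08, while Scd2, a desaturase of young tissue, fell by 0.68 ± 0.12. Srebf2, the master regulator, rose by 0.32 ± 0.07 (adjusted p = 0.0542 without 8-week replicate 2).

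Of 23 transcription factors of the cardiac lineage 2 rose and 2 fell (17.4% called), with a median of 0.01. Tbx2, a repressor of chamber identity, fell by 0.76 ± 0.10, from 25 to 30.7 CPM down to 14.6 to 17.3 CPM, and Gata4 rose by 0.32 ± 0.06, from 125.8 to 135.9 CPM up to 158.2 to 165.2 CPM. Gata6 (-0.29 ± 0.08) and Hopx (0.30 ± 0.09) were called, and each lost the call without at least 5 libraries in turn (adjusted p up to 0.101 and 0.164). Of 15 splicing regulators Mbnl1 rose by 0.35 ± 0.08, and Rbm24 (-0.34 ± 0.09) and Rbfox2 (-0.29 ± 0.08) fell, with calls lost when 8-week replicate 2 was left out, among others (adjusted p of 0.0645 and up to 0.115 and 0.124). Of 21 metabolic nuclear receptors 2 were called, of 19 TGF-beta, BMP and Wnt regulators 1, of 14 wall stress genes 1, of 10 small leucine-rich proteoglycans 2 and of 26 ribosomal proteins 1, beside 13.8% of all genes.

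Other cell types were followed by marker lists. Endothelial markers had 1 of 15 called (Vwf, 0.37 ± 0.09), with a summed level of 1940 to 2380 CPM at 3 weeks and 1980 to 2350 CPM at 8 weeks. Pericyte markers had 1 of 8 called, Schwann and neuronal markers 1 of 7 and skeletal muscle markers 1 of 6. Of the conduction list 0 of 8 and of the lymphatic list 0 of 7 were called by edgeR, with 1 and 3 at an unadjusted p under 0.05. DESeq2 called 0 in both, and limma-voom 1 and 0. Of 7 erythroid transcripts 6 fell, with all 7 below 0 and a median of -1.91. Hba-a1, an alpha globin, stood at 194.3, 71.6, 115 and 135.9 CPM at 3 weeks and at 22.6, 17.5 and 63.4 CPM at 8 weeks (-1.91 ± 0.40, adjusted p = 0.00773). Hbb-bs fell by 1.88 ± 0.39. Alas2, which starts haem synthesis in red cell precursors, fell by 2.01 ± 0.40. With robust dispersion the calls of Hba-a1, Hbb-bs and Alas2 were lost (adjusted p = 0.109, 0.106 and 0.0931). The ages did not overlap, although 8-week replicate 3 held far more Hba-a1 than the other 8-week hearts, and without it the log2 change was -2.64. Globin genes come in near-identical copies, and blood left in the ventricle was not measured otherwise.

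**Figure D4:**
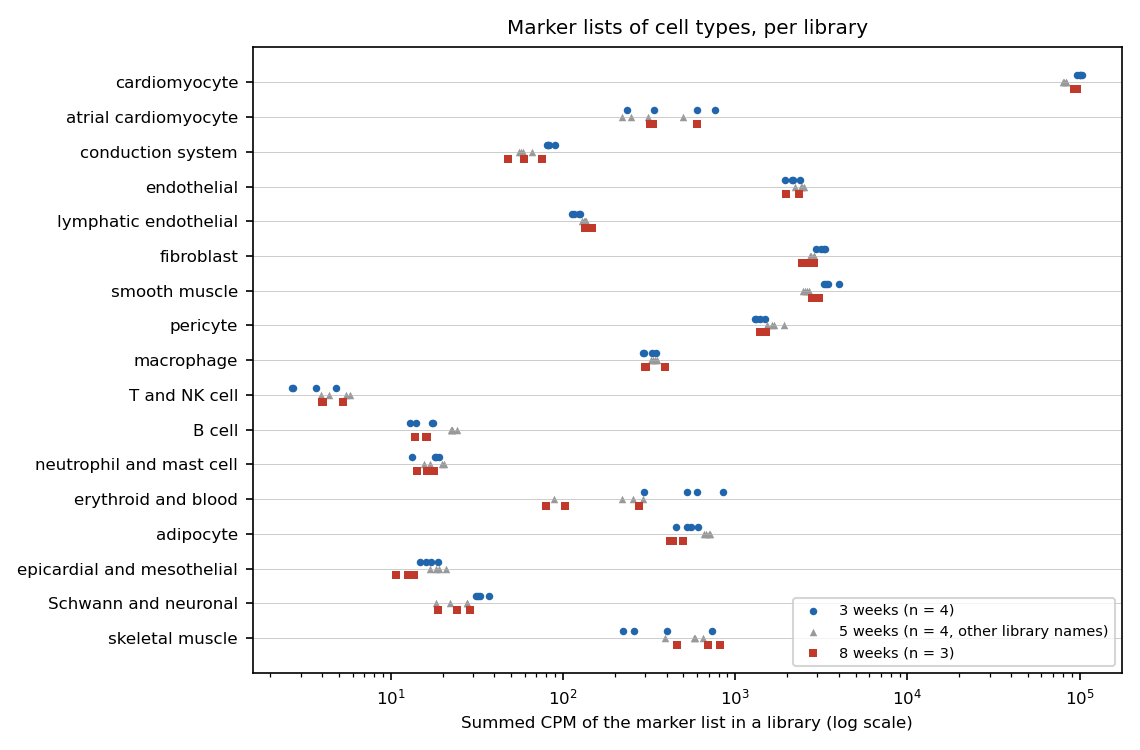
Summed CPM of 17 cell type marker lists in each library, on a log axis, for 3-week (blue), 5-week (grey) and 8-week (red) wild type hearts. Erythroid, fibroblast, smooth muscle, conduction, epicardial and Schwann sums at 8 weeks lie below those at 3 weeks, lymphatic sums lie above, and the other lists overlap. The smooth muscle sum includes Acta2, the only member of that list that edgeR called, and the fibroblast sum includes Col1a1. Without Acta2 the smooth muscle sums of the ages overlap, and so do the fibroblast sums without Col1a1.

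Whether genes that changed by 8 weeks also differed among older hearts was examined in libraries that the first comparison did not use. Sham hearts of 12 and 20 weeks were compared with 5-week hearts, a contrast in which age, sham surgery and library set cannot be told apart. It called 2372 of 13000 genes (18.2%), 1217 higher in the shams (9.36%) and 1155 lower (8.88%). Scaling by library size alone gave a median of -0.14 over all genes, beside -0.01, with 615 higher and 2376 lower. Of the 1019 genes that rose by 8 weeks 1001 were tested there, 497 (49.7%) were higher and 17 (1.7%) lower, with a median of 0.34. Of the 851 that fell 814 were tested, 332 (40.8%) were lower and 11 (1.35%) higher, with a median of -0.36. The 497 genes are 48.8% of the genes that rose and 40.8% of those higher in the shams, and the 332 genes are 39% of those that fell and 28.7% of those lower in the shams.

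Genes higher at 8 weeks and again in the shams included Cpxm2 (2.47, adjusted p = 1.4e-05), Scn4b (1.73), Bdh1 (1.82), C3 (1.95), Ankrd1 (1.46), Myot (1.67) and Bckdha (0.86), all as log2 changes of sham over 5 weeks. Lower in both were Lrat (-4.38), Eln (-1.92), Kcne1 (-1.58), Acta2 (-1.56), Sparc (-1.53) and Igf2 (-1.32). H2-Aa was higher by 1.03. Myh7 differed by 5.86, with 8452 CPM in sham replicate 2 of 12 weeks, 276.1 CPM in the other 12-week sham, and 418.4 and 876.8 CPM at 20 weeks, so that its size rests mainly on 1 heart. Other members parted from the first comparison. Fkbp5 (-0.15), Tsc22d3 (-0.01) and Per2 (0.29) were not called between shams and 5-week hearts. Their 5-week means stood at 17.2, 92.7 and 17.2 CPM, beside 14.7, 96.5 and 21.2 CPM at 8 weeks. Myc, which fell by 8 weeks, was higher in the shams (1.25, adjusted p = 0.017).

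**Figure D5:**
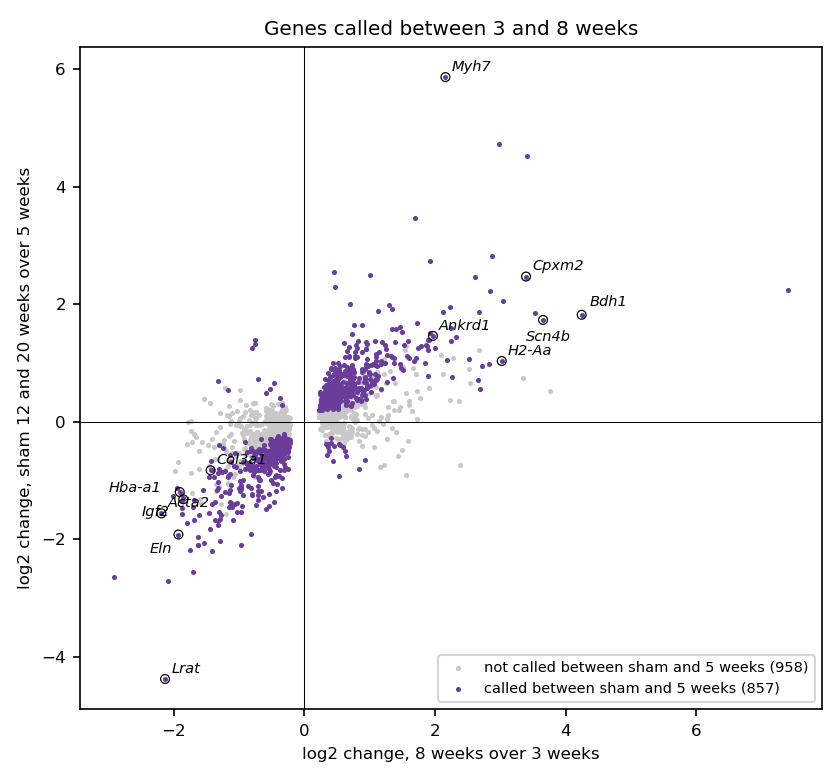
Log2 change of sham hearts of 12 and 20 weeks over 5-week hearts against the log2 change of 8 weeks over 3 weeks, for the 1815 genes called in the latter and tested in both. Purple points are called in both comparisons and grey points in the first, and the 2 comparisons share no library. Most purple points lie in the lower left and upper right.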

How the data were processed

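Left ventricular RNA was sequenced from total RNA with a stranded mRNA kit, per the labels' protocols. Counts per gene are those the authors deposited, made on mm10 with STAR 2.7.3a and featureCounts of Subread 2.0.0, per the submitters' processing notes. No source used here names the annotation release or the strand setting, and all value columns were matched to samples (0 unused). The 38293 genes in the table were named from GENCODE vM21 (GRCm38), which gave 36429 of them a symbol. Totals lay between 13.1 M and 18.4 M in the 3-week and 8-week libraries, which limits precision for genes of few counts.

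Genes were filtered with filterByExpr, scaled by TMM and tested with edgeR 4.0.16 (quasi-likelihood test, Benjamini-Hochberg adjustment over all genes tested, threshold 0.05) in R 4.3.3, with 3-week and 8-week wild type hearts alone in the fit. The script was tested on simulated data. Alternatives were DESeq2 1.42.0, limma-voom (limma 3.58.1), other scalings, filters and dispersions, more libraries in the fit, a replicate block, and each library left out. The labels do not say that replicate numbers pair the samples, and the main fit used no pairing.

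The genes and lists were chosen with earlier results of these data known. Named genes are 17 preset markers, the 10 largest rises and falls without overlap at a mean of at least 5 CPM, the 5 largest gains and losses in CPM among called genes, up to 4 called members per list by p plus 1 of the opposite direction where a list has at least 3 called members, and isoform pairs. Named outside this rule, after values were seen, were Acadm, Acads, Cd34, Cd36, Cd68, Cd79a, Ciita, Cpt2, Csf1r, Dcn, Ddr2, Ddx3y, Fabp3, H2-D1, H2-K1, Hspa1b, Igf1, Myh11, Pdgfra, Pdgfrl, Plk1, Tagln, Tcf21, Timd4 and Vwf. Promoters are RefSeq's, of GRCm38.p6. The libraries of mutant, infarcted or reperfused hearts formed no side of any comparison in the text. They did enter some alternative fits that held more libraries, and so shaped the calls and adjusted p quoted from those fits. A few results are not reported here.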

Additional observations from a re-analysis of the deposited data

Results flagged for a closer look

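In groups of 4 libraries, a level was singled out where its gap to the nearest other library exceeded 0.829 of the group's range (Dixon's criterion). Of 334 groups tested 24 met it, 4 at 3 weeks and 20 at 5 weeks, and chance flags about 1 in 20 groups. The 8-week group of 3 was not tested. At 3 weeks Bdh1 stood at 15.29 CPM in replicate 2, against 3.215 to 3.827 CPM in the others. At 3 weeks Tk1 stood at 6.436 CPM in replicate 2, against 3.173 to 3.601 CPM in the others. At 3 weeks Tnnt2 stood at 7768 CPM in replicate 1, against 6335 to 6537 CPM in the others. At 3 weeks Pfkm stood at 1176 CPM in replicate 4, against 1092 to 1104 CPM in the others.

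The 5-week replicate 1 stood above the other 5-week hearts in Nppa (288.5 CPM), Cpxm2 (8.875 CPM), Bdh1 (80.06 CPM), Mcm5 (8.408 CPM) and Mfap5 (58.85 CPM). The 5-week replicate 1 stood below the other 5-week hearts in Tnni1 (0.1868 CPM), Dnajb4 (87.72 CPM) and Ces1d (40.82 CPM). The 5-week replicate 2 stood above the other 5-week hearts in Sparc (1409 CPM), Gjc1 (38.88 CPM), Ivd (325.6 CPM) and Nr4a1 (22.18 CPM). The 5-week replicate 3 stood above the other 5-week hearts in Tnni3 (4275 CPM), Igfbp3 (40.72 CPM), Cox6a2 (1296 CPM), Cox7a2 (408.8 CPM) and Cox8b (489.4 CPM). The 5-week replicate 3 stood below the other 5-week hearts in Col4a1 (1346 CPM) and Gata6 (47.4 CPM). The 5-week replicate 4 stood below the other 5-week hearts in Acsl6 (4.756 CPM).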

How the results depend on the processing

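The count of genes called between 3 and 8 weeks (1870, with 1019 higher and 851 lower) depended most on which libraries shared the estimate of spread. It was 896 (488 higher, 408 lower) with all 3-week and 8-week libraries in the fit and 1231 (544 lower) with all 39, and the cause was not tested. With each library left out it lay between 931 and 1713, the higher genes between 517 and 975 and the lower between 414 and 824. The low end came without 8-week replicate 2, where 909 (48.6%) of the called genes kept their call. Among the alternatives of tool, scaling, filter and dispersion it lay between 1817 (library size alone, 833 higher and 984 lower) and 2325 (no filter on low counts).

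The labels do not say whether replicate numbers pair the samples. Same-numbered libraries of both ages had correlations of 0.12, -0.033 and 0.015 in their deviations, beside -0.105 to 0.129 for other pairs. So few pairs cannot exclude pairing. With the replicate block 1561 genes were called (863 higher, 698 lower), 1406 of them (75.2%) shared.

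Between shams and 5-week hearts library size alone gave 615 higher and 2376 lower, and the 12-week shams alone 1348, with 726 higher and 622 lower. With each library left out 1567 to 2624 genes were called, 877 to 1406 higher and 690 to 1218 lower. The fewest came without 5-week replicate 2 (1567, 690 lower), and lower genes numbered 744 and 719 without 5-week replicates 3 and 4.

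Of 146 named genes that were called 79 kept the call in every setting. The call was lost by 56 with all 3-week and 8-week libraries in the fit, and by 39 with all libraries of the series. Reversals were seen only among named genes that were not called, as follows. With each library left out Nppa lay between -0.43 and 0.36 (the latter without 3-week replicate 2, and 0.01 without 8-week replicate 1), and it was 0.13 in limma-voom. Tnni3 lay between -0.03 (without 8-week replicate 1) and 0.11. Cpt1b lay between -0.04 (without 8-week replicate 2) and 0.07, and was -0.01 with library size alone. Tnnt2 lay between -0.04 (without 8-week replicate 1) and 0.1, and was -0.01 with library size alone. Myl3 lay between -0.1 and 0.02 (without 3-week replicate 1), and Myl7 between -1.0 (without 8-week replicate 2) and 0.09 (without 3-week replicate 3). Depth limits what can be said of genes near 1 CPM, such as Tnni1.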

Other observations

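Genes outside the lists and chosen after their values were seen also changed between 3 and 8 weeks (log2 change ± standard error, edgeR, adjusted p under 0.05 for each). C7, a terminal complement component, stood at 2.19, 2.74, 3.83 and 2.68 CPM at 3 weeks and at 12.4, 17.1 and 13.8 CPM at 8 weeks, and rose by 2.36 ± 0.18. Hsd11b1, which regenerates active glucocorticoid inside cells, stood at 3.79, 3.06, 4.83 and 3.44 CPM at 3 weeks and at 12.6, 13.1 and 15.4 CPM at 8 weeks, and rose by 1.88 ± 0.16. Ptgds, a prostaglandin D synthase, rose by 2.19 ± 0.32, Egf, epidermal growth factor, by 1.88 ± 0.16, Cd274, the ligand PD-L1, by 1.67 ± 0.20, and Maob, a monoamine oxidase of mitochondria, by 1.25 ± 0.10. The transcript of Nnt, a gene for a mitochondrial transhydrogenase, rose by 0.75 ± 0.11, and the protein was not measured.

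Among falls outside the lists, Tfrc, the transferrin receptor, stood at 159, 133, 158 and 229 CPM at 3 weeks and at 77.5, 69.8 and 138 CPM at 8 weeks, and fell by 0.82 ± 0.22. Lmnb1, lamin B1 of the nuclear envelope, fell by 0.93 ± 0.20, and Ndrg4 by 0.93 ± 0.10. Noncoding RNAs fell too, with Rian, from the same imprinted domain as Meg3, lower by 0.80 ± 0.11, and Mhrt, which overlaps Myh7 on the other strand, by 0.38 ± 0.11. The strand setting of the counting is not known here, and reads of Mhrt and Myh7 may not be told apart.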
